A study of Mus musculus with 2 samples.

Results

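Near intergenic peaks were the open chromatin regions that the deposited annotation placed outside genes and no farther than 50 kb from the nearest annotated transcription start. There were 11399 of them among 58076 peaks of mouse heart. They were chosen by 2 columns of the deposited peak table, the annotation "Distal Intergenic" and an absolute distance to the start of at most 50000 bp. No measured signal entered this rule, but it was set with earlier results of these data known. The peaks themselves were called on these reads. The assay was ATAC-seq, which finds open DNA in isolated nuclei by where the transposase Tn5 can insert sequencing adapters.

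One library came from hearts of Ythdc1 CKO mice, read here as a conditional knockout of Ythdc1. The genotype label does not name the tissue of the deletion. The other library came from hearts of Ythdc1flox/flox mice, which carry the floxed allele without the deletion and serve as the control. Both groups were kept on normal chow to an age of 15 days. The sources used here give neither the Cre driver nor the number of animals per library nor whether animals were pooled. With 1 library per genotype no difference below has a replicate check, and no test between the genotypes was possible.

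Regions of this kind, away from promoters, hold many of the enhancers through which transcription factors act on genes at a distance, and they also hold insulator sites and unannotated promoters. A peak is usually assigned to the gene with the nearest start, which need not be the gene it acts on. Ythdc1 encodes a nuclear protein that reads N6-methyladenosine (m6A) in RNA and acts in splicing, in RNA export and, in mouse embryonic stem cells, in silencing of retrotransposon chromatin.

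The 2 libraries held 6466537 counts in peaks in the knockout and 6755590 in the control. Near intergenic peaks took 777684 counts (12.0%) in the knockout and 814288 (12.1%) in the control, so the class as a whole kept a scaled ratio of 0.998. A single peak held 4 to 3504 counts in the knockout (median 45) and 3 to 2464 in the control (median 49). Peak spans ran from 199 to 1779 bp with a median of 318 bp, and the distance to the start ran from 3001 to 49986 bp with a median of 14770 bp. The lower bound of the distance follows from the annotation, which calls peaks nearer than 3 kb promoter. Counts were scaled to a sum of 1000000 over all peaks of a library (CPM). Every log2 ratio is the knockout CPM over the control CPM, with 0.5 counts added to each count.

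The genome itself was not used here, so peak sequence was read only where a peak held a whole RefSeq promoter window, which spans 250 bases before to 50 after an annotated start (GRCm38.p6). This was the case in 63 near intergenic peaks. In the knockout 3 of them (4.76%) were higher and 1 (1.59%) lower by a factor of 2 or more. Over near intergenic peaks these shares were 7.92% and 11.5%, and over all peaks 6.09% and 8.96%. The 63 were unlike the class, with a median mean CPM of 20.6 against 6.98 and a median span of 630 bp against 318 bp. The motif shares below describe these 63 and not the class. The label intergenic was also checked against RefSeq. Of the 11399 peaks, 1979 (17.4%) overlapped the span of a RefSeq gene, but only 351 (3.08%) that of a protein-coding gene, and of the 10919 on chromosomes with windows 413 (3.78%) lay within 1 kb of a RefSeq start. Those 413 had a median log2 ratio of -0.004, and the other 10506 one of -0.07.

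The windows of 5 such peaks are shown because they cover both directions and the level case: the long noncoding RNA (lncRNA) starts Gm40371 and Gm40501, higher in the knockout, the lncRNA start Gm9875 and a start of the ventricular myosin light chain gene Myl2, lower, and the lncRNA start D130051D11Rik, the strongest of them and nearly equal in both. Capitals mark a match to the AP-1 motif TGANTCA on either strand. No match in these 5 windows, on either strand, was found for the letters AGATAA of the GATA motif. The same held in these 5 for CATTCC, of the TEAD motif, and for cores of the glucocorticoid receptor, CTCF, MEF2 and SRF motifs. This says only that these letters are not there. Neither lower example reached 2-fold. The 1 window in a peak past 2-fold downward, which held the CTCF letters, is not printed.
Gm40371: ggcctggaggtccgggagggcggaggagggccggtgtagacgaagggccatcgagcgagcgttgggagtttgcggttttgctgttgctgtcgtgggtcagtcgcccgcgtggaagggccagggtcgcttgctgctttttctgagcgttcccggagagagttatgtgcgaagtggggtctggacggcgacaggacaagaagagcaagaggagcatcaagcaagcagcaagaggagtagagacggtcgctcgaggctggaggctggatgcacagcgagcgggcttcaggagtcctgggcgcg
Gm40501: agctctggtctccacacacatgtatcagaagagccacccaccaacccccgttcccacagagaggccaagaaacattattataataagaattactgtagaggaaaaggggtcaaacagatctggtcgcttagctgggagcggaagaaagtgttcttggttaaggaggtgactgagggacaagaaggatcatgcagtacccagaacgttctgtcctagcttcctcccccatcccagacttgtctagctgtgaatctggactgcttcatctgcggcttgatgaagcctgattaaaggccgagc
Gm9875: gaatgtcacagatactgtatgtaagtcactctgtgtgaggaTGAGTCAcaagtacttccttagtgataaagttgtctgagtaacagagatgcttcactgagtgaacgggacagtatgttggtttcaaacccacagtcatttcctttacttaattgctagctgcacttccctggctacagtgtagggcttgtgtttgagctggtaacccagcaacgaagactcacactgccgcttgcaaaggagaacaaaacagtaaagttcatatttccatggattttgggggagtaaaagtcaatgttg
D130051D11Rik: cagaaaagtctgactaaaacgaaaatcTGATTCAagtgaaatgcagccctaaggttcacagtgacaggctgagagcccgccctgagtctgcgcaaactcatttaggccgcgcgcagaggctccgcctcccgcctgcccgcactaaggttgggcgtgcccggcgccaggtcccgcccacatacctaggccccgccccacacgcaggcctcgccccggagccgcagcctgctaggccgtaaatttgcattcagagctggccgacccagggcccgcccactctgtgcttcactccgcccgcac
Myl2: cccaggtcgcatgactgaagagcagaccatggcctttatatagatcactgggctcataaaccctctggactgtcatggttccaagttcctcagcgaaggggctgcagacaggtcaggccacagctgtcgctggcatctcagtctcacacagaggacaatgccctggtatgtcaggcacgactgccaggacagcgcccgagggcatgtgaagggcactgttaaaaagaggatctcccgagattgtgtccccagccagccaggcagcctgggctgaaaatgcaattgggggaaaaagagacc

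The peak holding the Gm40371 window (chr6:47650379-47651655, window on the minus strand) had 710 counts in the knockout and 297 in the control, a ratio of 2.50 (95% interval 2.18 to 2.87). The peak of Gm40501 (chr8:64880728-64881335, minus strand) had 84 counts in the knockout and 21 in the control, a ratio of 4.18 (2.57 to 7.10). Both exact intervals lie above 1, and like all intervals here they cover counting error only and not the difference between animals. These peaks were picked for high ratios, and that of Gm9875 for a low one. Intervals on 1 side of 1 follow largely from that choice and are not a separate result. The peak of Gm9875 (chr2:13558579-13559156, plus strand), assigned to the tRNA methyltransferase gene Trdmt1, had 56 counts in the knockout and 115 in the control, a ratio of 0.509 (0.363 to 0.706). The peak at this RefSeq start of Myl2 (chr5:122092706-122093286, plus strand) lay upstream of the assigned Myl2 start, at -7665 bp. It had 233 counts in the knockout and 386 in the control, a ratio of 0.631 (0.534 to 0.744). The D130051D11Rik peak (chr15:85634317-85635359, plus strand) differed little, with 940 counts in the knockout and 1012 in the control, a ratio of 0.970 (0.887 to 1.06). Of the 63 windows in near intergenic peaks, 8 (12.7%) held the AP-1 letters, against 7.81% of all 32851 windows. The CTCF letters were in 5 (7.94%, against 2.43%), the TEAD letters in 10 (15.9%, against 14.7%) and the GATA letters in 6 (9.52%, against 11.2%). The MEF2 letters were in 4 (6.35%, against 3.69%), the SRF letters in 3 (4.76%, against 1.54%) and the glucocorticoid receptor letters in none (against 0.475%). A TEAD match was in the window of the lncRNA start Gm39792, which is not printed and whose peak had 58 counts in the knockout and 113 in the control, a ratio of 0.536 (0.384 to 0.742). Of the 3 windows in peaks past 2-fold upward 1 held the CTCF letters, and so did the 1 window in a peak past 2-fold downward, while none of these 4 held a match to the other motifs.

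At least 2-fold higher in the knockout were 903 near intergenic peaks (7.92%), beside 6.09% of all peaks, and at least 2-fold lower were 1315 (11.5%), beside 8.96% of all peaks. The median log2 ratio was -0.06, with quartiles of -0.58 and 0.40, and over all peaks the median was -0.05. The rule of 2-fold is one of size and not a test. In bulk tissue, fewer cells of a type and less open chromatin per cell cannot be told apart, and this holds for each difference that follows.

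Both directions depended on how deeply a peak was covered. In the tenth of near intergenic peaks with the lowest mean CPM, 258 were at least 2-fold higher and 379 lower, and the median log2 ratio was -0.57. In the tenth with the highest mean CPM, 27 were higher and 14 lower, with a median of 0.10. At or above the median mean CPM of 6.98, 230 of 5702 near intergenic peaks (4.03%) were higher and 287 (5.03%) lower, beside 2.78% and 3.37% of all peaks at that signal, and the median was 0.02. The larger number of lower peaks thus came mainly from weakly covered regions, and it also moved with the scaling: higher peaks made up 40.7% of those past 2-fold, 25.1% on the authors' RPM scale and 64.5% after removal of a loess trend on signal.

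The library in which the authors called a peak split the class in the same way. Called in both libraries were 5376 near intergenic peaks, of which 85 (1.58%) were higher and 92 (1.71%) lower, beside 0.851% and 1.02% of all peaks called in both. Of the 2157 called in the knockout alone, 818 were higher and none lower, and of the 3866 called in the control alone, 1223 were lower and none higher. The mark of a call rests on the same reads, so these last numbers describe the call and are not a separate result. Peaks called in 1 library alone were also weaker, with a median mean CPM of 4.82 in either set, against 11.8 for peaks called in both.

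**Figure D1:**
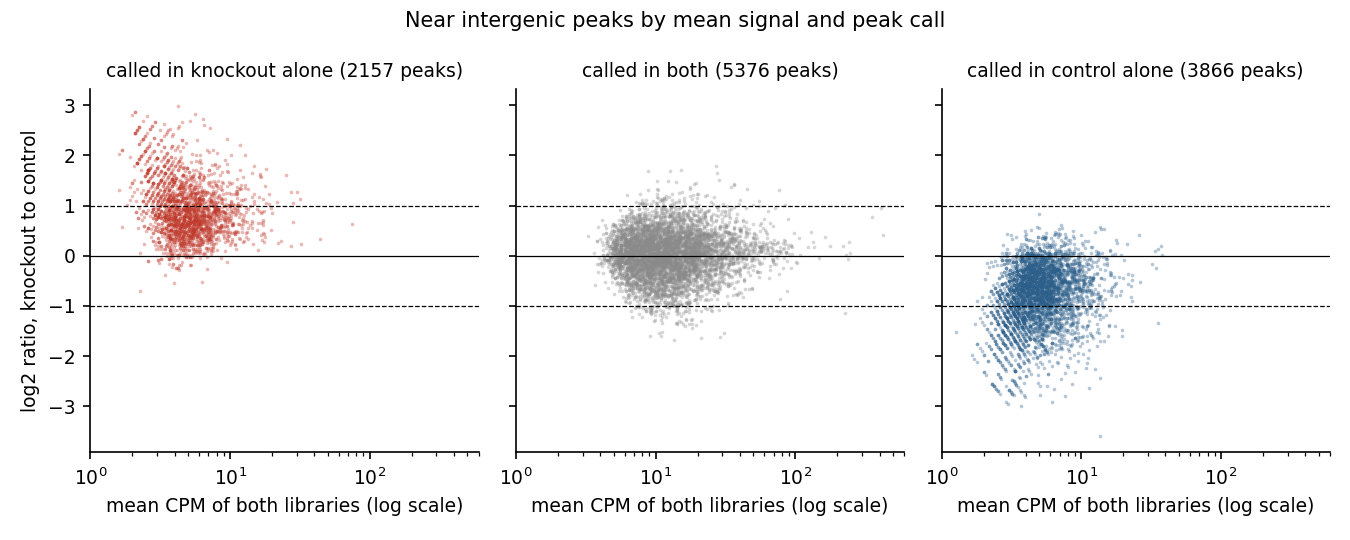
Each point is a near intergenic peak, with the mean CPM of both libraries on a log axis and the log2 ratio of knockout to control, in panels by the library of the call. Dashed lines mark 2-fold. Peaks called in both lie within 2-fold except for 85 above and 92 below, whereas 818 of 2157 and 1223 of 3866 of those called in knockout or control alone lie beyond it.

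Set beside other classes of the same table, near intergenic peaks stood with intron peaks. At least 2-fold different in either direction were 19.5% of near intergenic peaks (exact 95% interval 18.7 to 20.2), 20.2% (19.6 to 20.8) of the 17047 intron peaks, 28.3% (26.5 to 30.2) of the 2350 intergenic peaks beyond 50 kb and 5.56% (5.24 to 5.89) of the 19366 peaks within 1 kb of a start. These intervals treat peaks as independent. The classes differ in signal, with a median mean CPM of 6.98 in near intergenic, 7.30 in intron, 5.68 in far intergenic and 21.1 in promoter peaks. At or above 6.98 CPM the shares were 9.07% near intergenic, 9.54% intron, 13.5% far intergenic and 2.19% promoter, the same order.

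The knockout signal relative to control was lower at greater distance from the start. From 3 to 5 kb, 89 of 1079 peaks were higher (8.25%, 6.68 to 10.1) and 106 lower (9.82%, 8.11 to 11.8). From 40 to 50 kb, 74 of 811 were higher (9.12%, 7.23 to 11.3) and 122 lower (15.0%, 12.7 to 17.7), and beyond 50 kb the lower share was 19.0% (17.4 to 20.6). The share of higher peaks thus stayed between 7.07% and 9.32% in every bin, while the share of lower peaks was larger in each farther bin. The bin medians of the log2 ratio, from near to far, were -0.03, -0.02, -0.07, -0.07, -0.12 and -0.17, and -0.23 beyond 50 kb.

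Mean signal was also lower at distance, with a median of 8.11 CPM from 3 to 5 kb and 6.07 CPM from 40 to 50 kb. At or above 6.98 CPM, the medians were 0.06, 0.06, 0.01, 0.03, -0.03 and -0.09, so the 2 farthest bins were the lowest at higher signal too. Among peaks called in both libraries they were 0.10, 0.07, 0.03, 0.04, 0.02 and -0.04. Peaks upstream of the start (6725, median -0.08) and downstream (4674, median -0.05) both followed this order at the far end, with -0.24 upstream and -0.13 downstream from 40 to 50 kb.

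**Figure D2:**
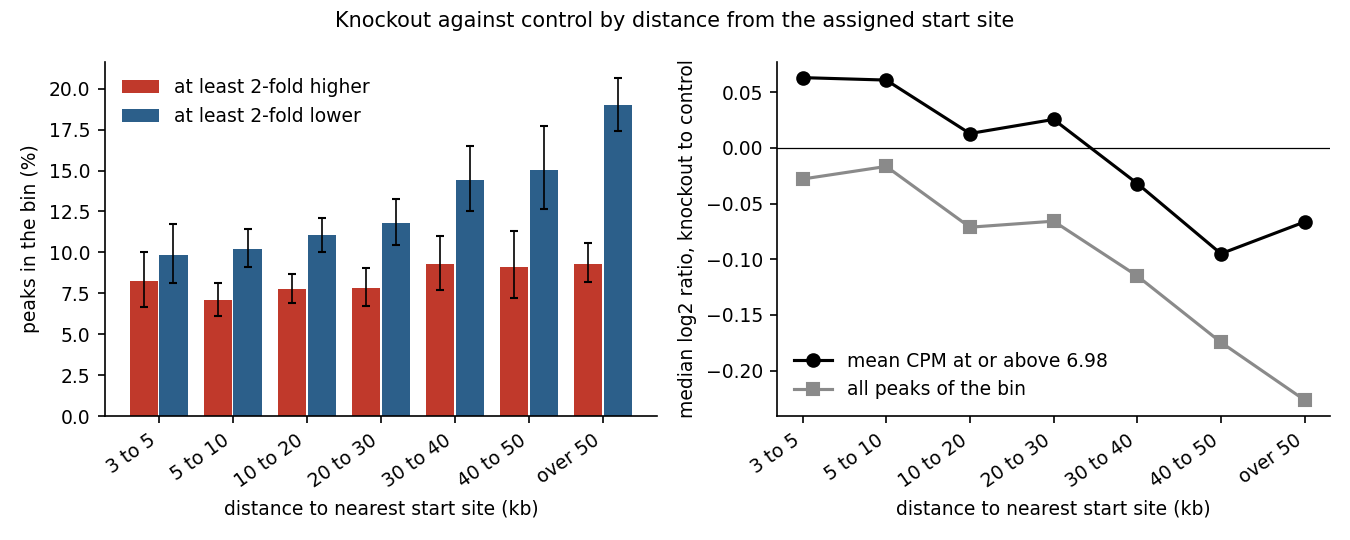
Left, share of peaks at least 2-fold higher or lower in the knockout by distance to the assigned start, with exact 95% binomial intervals as bars; right, median log2 ratio over all peaks of the bin and over those at or above 6.98 mean CPM. The lower share is 9.82% from 3 to 5 kb and 19.0% beyond 50 kb, while the higher share stays between 7.07% and 9.32%.

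At the limit of the rule, the last peaks inside were those of Lrrc8d at -49986 bp (92 counts in the knockout, 143 in the control), of Galnt1 at 49979 bp (24 knockout and 6 control counts) and of an unnamed gene at 49977 bp (56 knockout and 27 control counts). The first outside were those of Adamts1 at 50002 bp (62 in the knockout, 55 in the control), of Gm13665 at -50011 bp (46 knockout and 108 control counts) and of an unnamed gene at -50044 bp (42 knockout and 33 control counts). On either side of the limit peaks of both directions occurred.

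The strongest near intergenic peaks mostly lay away from known coding genes. The first by mean CPM, on chromosome 15 (chr15:75085447-75087128, nearest coding gene Ly6c2 at 21033 bp), held 3129 counts in the knockout and 2464 in the control, a ratio of 1.33 (1.26 to 1.40). The next, on chromosome 11 (chr11:109011546-109012216, 60763 bp from Axin2), held 3504 knockout and 1897 control counts, a ratio of 1.93 (1.82 to 2.04). A peak on chromosome 3 (chr3:5860246-5860926, 281650 bp from Pex2) held 2899 in the knockout and 1767 in the control, a ratio of 1.71 (1.61 to 1.82). These 3 were higher in the knockout but short of 2-fold, and on the RPM scale their log2 ratios were 0.24, 0.78 and 0.60. Their counts stood far above the class medians of 45 in the knockout and 49 in the control. The processing notes do not state which filters applied, and whether such counts are signal artefacts was not tested. The remaining 2 of the 5 strongest, on chromosome 19 (chr19:61266401-61267254) and upstream of the transmembrane protein gene Tmem125 (chr4:118547529-118548819), had log2 ratios of 0.06 and 0.27, and the first was at -0.11 on the RPM scale.

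Among peaks with at least 6.98 mean CPM and a symbol that is not of a predicted gene, the highest ratio was at a peak at -18057 bp from the start of the pseudogene Eif1-ps3, the minus sign meaning upstream (chr2:72588879-72589398), with 103 counts in the knockout and 21 in the control, a ratio of 5.12 (3.18 to 8.63). The nearest coding gene there, Cdca7, lay 101987 bp away. Next came a peak assigned to Sorbs2os, an antisense RNA of Sorbs2 (chr8:45831924-45832342), with 133 counts in the knockout and 34 in the control, a ratio of 4.09 (2.79 to 6.14). It lay 4018 bp from Sorbs2 itself, which encodes an adaptor of the Z-disc and of cell adhesions. The peak assigned to Sorbs2, at -37769 bp, had the other direction, with 17 counts in the knockout and 47 in the control. A peak assigned to Jcad, a gene of endothelial cell junctions (chr18:4684323-4684764), had 94 knockout and 26 control counts, a ratio of 3.78 (2.42 to 6.08), and ended 1454 bp from the RefSeq span of that gene.

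Mirt1, an lncRNA named for its association with myocardial infarction, had a peak at -17787 bp (chr19:53482583-53482968) with 96 counts in the knockout and 28 in the control, a ratio of 3.58 (2.33 to 5.67). The peak assigned to the sodium-calcium exchanger gene Slc8a1 (chr17:81681602-81681943) had 95 counts in the knockout and 31 in the control, a ratio of 3.20 (2.11 to 4.97). It overlapped the RefSeq span of Slc8a1, so intergenic there holds only for the authors' gene models. The other 5 of the 10 highest were at the microRNA genes Mir298 and Mir3089, the melanophilin gene Mlph, the ubiquitin-conjugating enzyme gene Ube2q2 and the RNA-binding protein gene Zfr, with ratios between 3.32 and 3.59. All 10 peaks were called in the knockout alone. Their mean CPM came mostly from the knockout. The choice by ratio largely fixes both the call and an interval above 1, so neither is a separate result.

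The lowest ratio was at a peak 9480 bp downstream of the start of Tnfsf13b, the B-cell survival factor BAFF (chr8:10040798-10041416), with 13 counts in the knockout and 169 in the control, a ratio of 0.0804 (0.0419 to 0.141). The promoter peak of Tnfsf13b held 41 knockout and 51 control counts, a ratio of 0.840 whose interval of 0.543 to 1.29 includes 1. Prss55, a serine protease gene, followed with 18 counts in the knockout and 89 in the control at chr14:64063843-64064287, a ratio of 0.211 (0.120 to 0.353). The remaining 8 of the 10 lowest had ratios from 0.240 to 0.296. They were at Cables1, Fndc3b, the transcription factor gene Bhlhe23, the rhomboid protein gene Rhbdl3, the endosomal sorting gene Stam2, the endoplasmic reticulum calcium sensor gene Stim2, the pseudogene Zfp133-ps and the ion exchanger gene Slc24a5. All 10 were called in the control alone. Here the mean CPM came mostly from the control, and the call and intervals below 1 again follow largely from the choice by ratio. Of these 10 genes, 6 others had a promoter peak, with ratios of 0.610 at Rhbdl3 and above, and that of Cables1 was above 1 (1.25, 1.07 to 1.46).

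**Figure D3:**
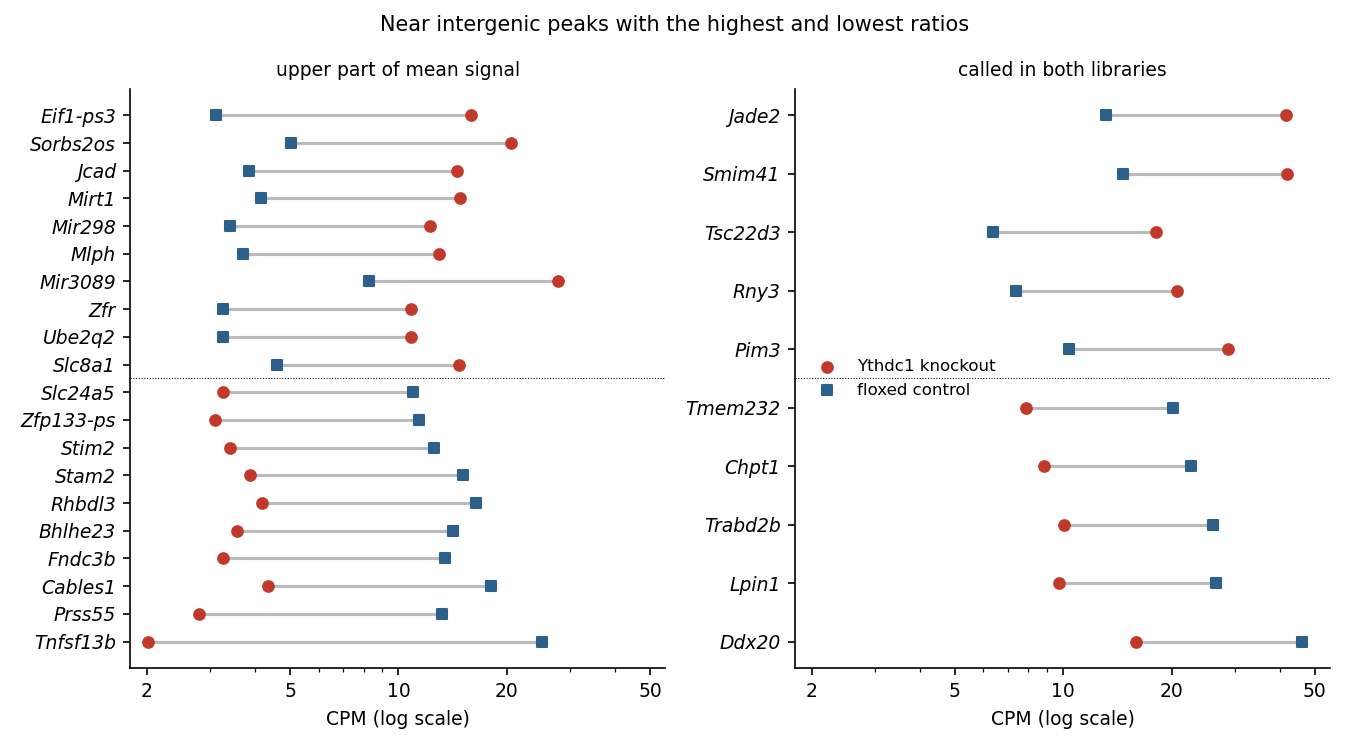
CPM in the knockout (circles) and the control (squares), on a log axis, at the peaks with the highest ratios above the dotted line and the lowest below it; left, peaks at or above 6.98 mean CPM, right, peaks called in both libraries; predicted genes are left out. The widest gap is at Tnfsf13b, with 13 counts in the knockout and 169 in the control, and in the right panel the ratios run from 3.15 at Jade2 to 0.345 at Ddx20.

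A call in both libraries leaves out peaks called in 1 alone, but it is also a choice made on the same reads. Peaks called in both were past 2-fold in 3.29%, against 19.5% of the class. Among those with a symbol that is not of a predicted gene, the highest was at -16541 bp from Jade2 (chr11:51874194-51874956), which encodes a subunit of a histone acetyltransferase complex, with 268 counts in the knockout and 89 in the control, a ratio of 3.15 (2.47 to 4.04). Its promoter peak was higher as well, with 264 knockout and 124 control counts, a ratio of 2.22 (1.79 to 2.78). Next came Smim41, a small membrane protein gene, with 271 knockout and 99 control counts (ratio 2.86, 2.26 to 3.64), and Tsc22d3, which encodes the glucocorticoid-induced leucine zipper protein, with 117 knockout and 43 control counts (ratio 2.84, 1.99 to 4.13). The 5 highest were completed by Rny3, a Y RNA gene (134 knockout and 50 control counts, ratio 2.80), and Pim3, a serine/threonine kinase gene (185 knockout and 70 control counts, ratio 2.76), whose promoter peak had a ratio of 1.45 (1.28 to 1.64).

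The lowest of the same peaks was at -8075 bp from Ddx20, an RNA helicase gene of the SMN complex (chr3:105695649-105696205), with 103 counts in the knockout and 312 in the control, a ratio of 0.345 (0.273 to 0.432). Its promoter peak had 524 knockout and 580 control counts, a ratio of 0.944 (0.837 to 1.06). Lpin1, a phosphatidate phosphatase gene of lipid synthesis, had 63 counts in the knockout and 180 in the control, a ratio of 0.366 (0.270 to 0.490), in a peak that RefSeq places inside the gene. Trabd2b, a Wnt inhibitor gene, the phospholipid synthesis gene Chpt1 and Tmem232 had ratios of 0.386, 0.389 and 0.392. The promoter peaks of Chpt1 (218 knockout and 349 control counts, ratio 0.653, 0.548 to 0.775) and Tmem232 (49 knockout and 75 control counts, ratio 0.683, 0.466 to 0.991) were lower as well, and that of Trabd2b was not (192 knockout and 177 control counts, ratio 1.13, 0.919 to 1.40).

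The 11399 peaks were assigned to 6922 gene identifiers, of which 4340 held 1 peak, 1527 held 2, 857 held 3 or 4 and 198 held 5 or more, up to 19. Of the 198 genes with at least 5 peaks, 17 had all of them above a log2 ratio of 0 and 12 had all below. At least 3 peaks past 2-fold were counted in 9 of these genes upward and in 4 downward, and 14 genes had peaks past 2-fold in both directions. Over all near intergenic peaks, 46.5% had a log2 ratio above 0, 7.92% were past 2-fold upward and 11.5% downward. How many such genes would arise from these shares alone was not tested.

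Ccn5, a matricellular gene of the CCN family, had the highest mean log2 ratio among them, 1.25 over 5 peaks. At -7368 bp it had 48 counts in the knockout and 8 in the control (ratio 6.27, 2.94 to 15.3), at -10856 bp 47 knockout and 14 control counts (3.51, 1.90 to 6.90) and at -21899 bp 162 knockout and 77 control counts (2.20, 1.67 to 2.92). The farther pair, at -31938 and -32793 bp, had ratios of 1.25 and 1.36, with intervals that reach below 1. The 5 peaks were thus higher in the knockout to unequal degrees, and the Ccn5 promoter peak was level, with 102 knockout and 107 control counts (ratio 0.996, 0.752 to 1.32).

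The next 2 means were those of peaks assigned to a noncoding and an unnamed gene. Ddit4 (8 peaks, mean 0.86, 4 past 2-fold upward) and Tmem270 (7 peaks, all above 0, mean 0.85, 3 past 2-fold upward) also had high means. Gm22807, a small nucleolar RNA gene near Lgalsl, had 6 peaks with a mean log2 ratio of 1.18, all above 0, 3 of them past 2-fold and the strongest with 540 counts in the knockout and 302 in the control. On chromosome 6, 6 peaks assigned to the unnamed ENSMUSG00000087897 had a mean of 1.18, and 5 of them were past 2-fold. Among these is the Gm40371 peak printed above, and its neighbour at chr6:47652913-47653306 held 272 counts in the knockout and 82 in the control (ratio 3.47, 2.70 to 4.49). The nearest coding gene, 55109 bp from the first of them, is Ezh2, which encodes the H3K27 methyltransferase of the Polycomb complex.

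The lowest mean, -1.63, was that of 5 peaks assigned to ENSMUSG00000101265 on chromosome 1 (chr1:92309482-92359247), between Hdac4 and Ndufa10. All 5 were at least 2-fold lower, with 126 counts in all in the knockout and 387 in the control. Its strongest peak (chr1:92343593-92344261), the 1 called in both libraries, held 62 counts in the knockout and 168 in the control, a ratio of 0.386 (0.283 to 0.519). Gm25038, near Btg3, and Gm22215, near Hnrnpll, both small RNA genes, had means of -1.14 over 5 and 6 peaks, with 3 and 4 of them past 2-fold. Adrb1, the beta-1 adrenergic receptor gene, had 5 peaks that were all below 0, described with the calcium genes.

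Peaks that lay close together leaned the same way. Of 790 pairs of adjacent near intergenic peaks within 1 kb, both were past 2-fold in 31, and 29 of those had 1 direction. At 1 to 5 kb this held for 34 of 44, at 5 to 10 kb for 37 of 51, and beyond 200 kb for 90 of 159. The Spearman correlation of the log2 ratios of neighbours was 0.31 within 1 kb and 0.06 beyond 200 kb, as a description across pairs that share both libraries. Runs of at least 3 adjacent peaks past 2-fold in 1 direction, with gaps up to 10 kb, numbered 7, of which 6 were lower. The 1 higher run was that of the Gm40371 region (chr6:47650379-47663370), with 1025 counts in the knockout and 391 in the control over 3 peaks. Among the lower runs, that near Hnrnpll (chr17:79989562-80002775) had 53 knockout and 199 control counts over 4 peaks, and that upstream of Srd5a3, a steroid reductase gene (chr5:76115500-76128039), had 36 knockout and 103 control counts over 3. All peaks of these 2 lower runs were called in the control alone, which also follows largely from the choice of peaks past 2-fold.

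Promoters followed their near intergenic peaks only loosely. Over 2788 genes with both, the Spearman correlation between the promoter log2 ratio and the mean over near intergenic peaks was 0.17, and it was 0.18 over the 454 genes with at least 3 near intergenic peaks. Of the 28 genes with a promoter peak and at least 2 near intergenic peaks higher and none lower, 16 had a promoter log2 ratio above 0, 1 was past 2-fold and the median was 0.20. Of the 36 with at least 2 lower and none higher, 10 were above 0, 1 was past 2-fold downward and the median was -0.11, against -0.01 for the 2118 genes with no peak past 2-fold.

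By the type of the assigned gene, 16.8% of the 4675 peaks at protein-coding genes were past 2-fold, 19.8% of the 1175 at lncRNA genes, 23.1% of the 1426 at pseudogenes and 24.6% of the 558 at small RNA genes or gene segments. The median mean CPM was 7.45 at protein-coding genes, 7.01 at lncRNA genes, 6.13 at pseudogenes and 6.58 at small RNA genes or gene segments. The classes with larger shares thus had weaker peaks than protein-coding genes, but the largest share was not in the weakest class. No symbol was matched for 3565 peaks. Chromosome medians of the log2 ratio on the autosomes lay between -0.17 (chromosome 13) and 0.02 (chromosome 17).

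A total of 20 lists of genes for heart biology and for other cell types were then set against the assignments. Of 370 genes on the lists, 326 were matched in the table and 135 had a near intergenic peak, 266 peaks in all. The lists were chosen with earlier results of these data known, so their directions are described and not tested, and each stands beside the medians of -0.06 over near intergenic peaks and -0.05 over all peaks. Their counts past 2-fold stand beside 7.92% higher and 11.5% lower over near intergenic peaks, and 6.09% higher and 8.96% lower over all peaks.

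Glucocorticoid targets, genes that the steroid-activated glucocorticoid receptor induces in many tissues, had 28 near intergenic peaks at 10 genes. Of these, 8 (28.6%) were past 2-fold upward in the knockout, none downward, and 21 were above 0. The median log2 ratio was 0.67, and under the 7 alternative settings it lay between 0.49 and 0.77. Among the 20 called in both libraries 6 were higher and none lower. Ddit4, which encodes an inhibitor of mTORC1 signalling, had 8 peaks, of which 4 were past 2-fold and 7 above 0. At -17937 bp (chr10:59969771-59970505) it had 432 counts in the knockout and 223 in the control, a ratio of 2.02 (1.72 to 2.39), at a site nearer to Anapc16.

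The rest of the Ddit4 peaks were weaker but mostly of the same direction. At 8408 bp there were 164 counts in the knockout and 68 in the control (ratio 2.52, 1.89 to 3.39), at -5572 bp 76 knockout and 30 control counts (2.65, 1.71 to 4.18) and at 30426 bp 116 knockout and 56 control counts (2.16, 1.56 to 3.03). Those at 31857, 34897 and 35356 bp had ratios of 1.76, 1.76 and 1.46, and lay in an interval between Ddit4 and Dnajb12. The exception was the peak at -13305 bp, with 126 counts in the knockout and 140 in the control (ratio 0.940, 0.733 to 1.20). The Ddit4 promoter peak had 720 knockout and 532 control counts, a ratio of 1.41 (1.26 to 1.58).

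Tsc22d3 had 5 near intergenic peaks on chromosome X. Beside the peak at 31168 bp described above, those at 28968 bp (70 counts in the knockout, 35 in the control, ratio 2.09, 1.37 to 3.23), 6791 bp (87 knockout and 55 control counts, 1.65, 1.17 to 2.36) and 36284 bp (131 knockout and 89 control counts, 1.54, 1.17 to 2.04) were higher, and that at 21933 bp was level (185 knockout and 202 control counts, 0.957, 0.780 to 1.17). Its promoter peak had a ratio of 0.945 (0.789 to 1.13). The promoter of Tsc22d3 was thus level beside 4 distal peaks whose intervals lay above 1.

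Errfi1, a feedback inhibitor of the EGF receptor, had 202 counts in the knockout and 92 in the control at 16384 bp, a ratio of 2.29 (1.78 to 2.97), with a promoter ratio of 1.05 (0.887 to 1.24). Sgk1, a kinase of sodium transport, had 245 knockout and 128 control counts at 3796 bp, a ratio of 2.00 (1.61 to 2.50) that was just short of the 2-fold rule before rounding. The peak of the cell cycle inhibitor gene Cdkn1a at 3145 bp had 58 counts in the knockout and 9 in the control, a ratio of 6.73 (3.31 to 15.5), and was called in the knockout alone. The list had members of the other direction too. Dusp1, a MAP kinase phosphatase gene, had 4 of its 6 peaks below 0, the strongest of them at 18218 bp with 185 counts in the knockout and 261 in the control.

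Genes of the fetal programme and of stress in cardiomyocytes had 15 peaks at 7 genes, 5 higher and 2 lower, with a median of 0.67 that turned to -0.23 both among the 8 called in both libraries and among the 10 with higher mean CPM. Within the list the genes separated. All 3 peaks upstream of Myh7, the slow myosin heavy chain gene, were lower in the knockout. At -9122 bp (chr14:55003748-55005134) there were 915 counts in the knockout and 2121 in the control, a ratio of 0.451 (0.417 to 0.487). At -8627 bp there were 130 knockout and 346 control counts (0.393, 0.318 to 0.482) and at -7704 bp 354 knockout and 674 control counts (0.549, 0.481 to 0.625). The Myh7 promoter peak, with 134 knockout and 281 control counts, had a ratio of 0.498. RefSeq places these 3 peaks within the span of a gene that is not protein-coding.

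Other fetal genes were higher or mixed. Ankrd1, a stretch-induced ankyrin repeat gene, had 141 counts in the knockout and 61 in the control at -9740 bp (ratio 2.41, 1.78 to 3.32), but 103 knockout and 125 control counts at -47320 bp (0.861, 0.657 to 1.13). The Ankrd1 promoter peak was higher, with 507 knockout and 181 control counts, a ratio of 2.93 (2.46 to 3.49). Myl7, the atrial regulatory light chain gene, had 2 peaks called in the knockout alone, with 51 knockout and 18 control counts (2.96, 1.70 to 5.38) and 48 knockout and 22 control counts (2.28, 1.35 to 3.97). Nppb, the gene of the natriuretic peptide BNP, had 233 counts in the knockout and 289 in the control at -21572 bp (ratio 0.842), 77 knockout and 54 control counts at -16080 bp (1.49, 1.04 to 2.15) and 58 knockout and 26 control counts at -5852 bp (2.33, 1.44 to 3.86). The 3 Nppb peaks had higher ratios the nearer they lay to the start.

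Sarcomere and Z-disc genes had 11 peaks at 7 genes, none past 2-fold in either direction, and 8 below 0. The median was -0.56, and it lay between -0.73 and -0.51 under the 7 alternatives. Myl2 had 4 peaks, of which 3 were lower: beside the 1 printed above, 245 counts in the knockout and 405 in the control at -5934 bp (ratio 0.632, 0.537 to 0.742) and 54 knockout and 106 control counts at -7342 bp (0.532, 0.376 to 0.745). RefSeq places these 3 inside Myl2. Ttn, the titin gene, had 131 knockout and 222 control counts at -15524 bp (0.616, 0.493 to 0.768), at a site nearer to Ccdc141. Tnnt2, the cardiac troponin T gene, went against them, with 846 counts in the knockout and 784 in the control at 5865 bp, a ratio of 1.13 (1.02 to 1.24) that was at a log2 ratio of 0.001 on the RPM scale.

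Calcium handling and ion channel genes had 23 peaks at 11 genes, 2 higher and 3 lower, with 17 below 0 and a median of -0.63 (-0.79 to -0.49 under the alternatives). All 4 peaks upstream of Ryr2, the calcium release channel gene of the sarcoplasmic reticulum, were lower and were called in both libraries. At -26483 bp (chr13:12133428-12134170) there were 246 counts in the knockout and 401 in the control (ratio 0.641, 0.545 to 0.753), at -25240 bp 114 knockout and 216 control counts (0.551, 0.436 to 0.695), at -22230 bp 106 knockout and 178 control counts (0.622, 0.484 to 0.796) and at -18038 bp 78 knockout and 126 control counts (0.647, 0.481 to 0.865). The Ryr2 promoter peak was lower too, at 0.734 (0.578 to 0.930). None of these reached 2-fold, and the 4 ratios lay within one another's intervals.

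The near intergenic peaks of Adrb1 had the lowest ratios far upstream, but the intervals of neighbours overlapped and the promoter peak broke the order. Its peaks at -45492, -44432 and -42010 bp had 38 counts in the knockout and 122 in the control (ratio 0.325, 0.220 to 0.472), 25 knockout and 51 control counts (0.512, 0.304 to 0.842) and 65 knockout and 97 control counts (0.700, 0.503 to 0.968). Those at -21177 and 13940 bp had 35 knockout and 47 control counts (0.778, 0.487 to 1.23) and 64 knockout and 72 control counts (0.929, 0.653 to 1.32), and their intervals include 1. The promoter peak had 93 knockout and 181 control counts, a ratio of 0.537 (0.413 to 0.693). Slc8a1 had peaks of both directions, with 4 counts in the knockout and 29 in the control at -40974 bp beside the higher peak given above and 190 knockout and 149 control counts at -19982 bp. Casq2, the calsequestrin gene, had 94 knockout and 88 control counts at -4200 bp (log2 ratio 0.16).

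**Figure D4:**
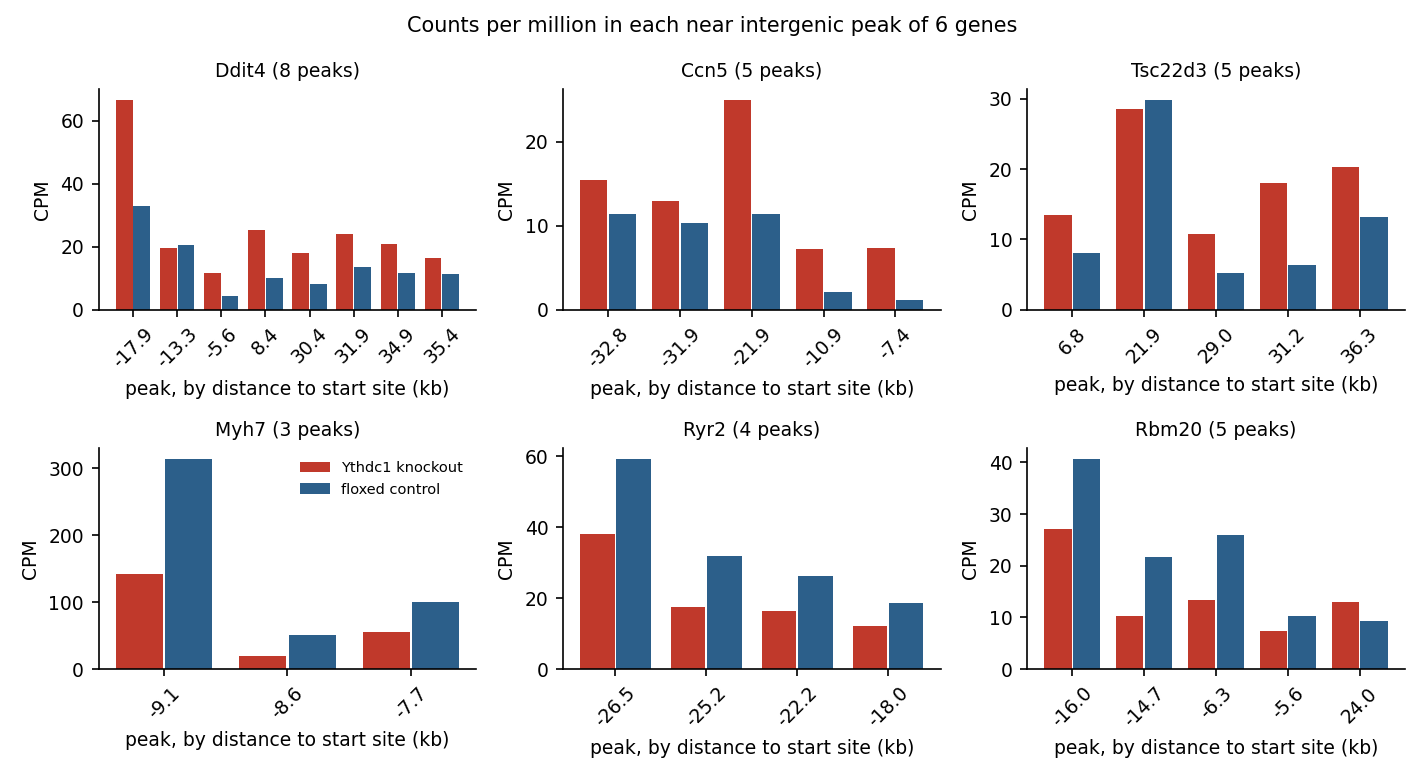
CPM in the knockout (left bar) and the control (right bar) at each near intergenic peak of 6 genes, ordered by distance to the assigned start in kb. Ddit4 and Tsc22d3 have 1 peak each that is level or lower, all 5 peaks of Ccn5 are higher in the knockout, all of Myh7 and Ryr2 are lower, and Rbm20 has 4 lower and 1 higher.

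Splicing regulators and m6A genes, the machinery closest to the function of Ythdc1, had 17 peaks at 7 genes, 2 higher and 3 lower, with a median of -0.06 that was 0.12 after the loess trend was removed, 0.07 among the 10 with higher mean CPM and -0.76 among the 4 called in both. Rbm20, the regulator of titin splicing in the heart, had 175 counts in the knockout and 275 in the control at -15986 bp (ratio 0.665, 0.547 to 0.806), 66 knockout and 147 control counts at -14678 bp (0.469, 0.345 to 0.631), 87 knockout and 175 control counts at -6279 bp (0.519, 0.397 to 0.675) and 48 knockout and 69 control counts at -5576 bp. RefSeq places these 4 inside Rbm20. The peak beyond its end had 84 knockout and 63 control counts (1.39, 0.993 to 1.96). Rbm24, a muscle splicing factor gene, had 74 knockout and 152 control counts at -4454 bp (0.509, 0.380 to 0.676). Qk, which encodes the quaking RNA-binding protein, had 191 counts in the knockout and 95 in the control at 15659 bp, a ratio of 2.10 (1.63 to 2.72), and Rbfox2 had 299 knockout and 270 control counts at -29071 bp (log2 ratio 0.21).

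Cardiac transcription factor genes had 9 peaks at 6 genes, none higher and 1 lower, with a median of 0.35 (0.17 to 0.43 under the alternatives). Nkx2-5 had 149 counts in the knockout and 120 in the control at -9007 bp (ratio 1.30, 1.01 to 1.66), while its promoter peak was lower (0.647, 0.505 to 0.826). Gata6 had 83 knockout and 55 control counts at 48228 bp (1.58, 1.11 to 2.26), and Hand1 was level with 40 knockout and 42 control counts. The 1 lower peak was at Esrrb, an estrogen-related receptor gene, with 7 knockout and 38 control counts.

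Genes of fatty acid oxidation and mitochondria had 14 peaks, 1 higher and 1 lower, and a median of -0.05 that turned positive, at most 0.06, under 5 of 7 alternatives. Fabp3, the heart fatty acid binding protein gene, was level with 501 counts in the knockout and 499 in the control. Cd36, a fatty acid transporter gene, had 307 knockout and 289 control counts at -34911 bp (log2 ratio 0.15). Pdk4, a kinase that limits glucose oxidation, had 303 knockout and 276 control counts at -12918 bp (log2 ratio 0.20). The strongest peaks of these metabolic genes thus differed little. Lpl, the lipoprotein lipase gene, held the 1 lower peak, with 4 knockout and 31 control counts.

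Extracellular matrix genes had 30 peaks, 1 higher and 2 lower, with a median of 0.09 that was -0.08 on the RPM scale. The higher peak, at -27449 bp from Col5a1, a fibrillar collagen gene, had 160 counts in the knockout and 54 in the control (ratio 3.10, 2.26 to 4.30). The 2 lower peaks were at Postn, the periostin gene (12 knockout and 66 control counts), and Sparc (20 knockout and 49 control counts). The strongest peaks of Sparc (228 knockout and 208 control counts) and Col1a1 (128 knockout and 135 control counts) were within 2-fold.

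Genes of TGF-beta and BMP signalling had 15 peaks, 2 higher and none lower, with a median of -0.07 that was 0.06 after the loess trend was removed. Smad7, the inhibitory Smad, had 304 counts in the knockout and 195 in the control at 29957 bp (ratio 1.63, 1.36 to 1.96) and 72 knockout and 17 control counts at 23281 bp (4.42, 2.58 to 8.01), and its promoter peak had a ratio of 1.30 (1.18 to 1.44). Tgfb2, a ligand gene, had 37 knockout and 10 control counts at 45509 bp but 148 knockout and 158 control counts at 39680 bp. Ltbp1, which encodes a latent TGF-beta binding protein, had 61 knockout and 63 control counts at its strongest peak.

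Immediate early genes, AP-1 members included, had 18 peaks, 1 higher and none lower, and a median of 0.08 that was -0.09 on the RPM scale. Fos had 485 counts in the knockout and 597 in the control at -17932 bp, a ratio of 0.849 (0.751 to 0.958). Nr4a1, an orphan nuclear receptor gene, was level at -7430 bp with 363 knockout and 361 control counts. Ier3 was higher at -7908 bp, with 387 knockout and 318 control counts (1.27, 1.09 to 1.48), and held the 1 peak past 2-fold, with 120 knockout and 42 control counts at -18243 bp. Tension-linked adhesion and actin genes had 21 peaks, 1 higher and 2 lower, with a median of 0.27 that was -0.01 among the 9 called in both. Synpo, the synaptopodin gene, had 252 counts in the knockout and 142 in the control at -8823 bp. Ablim1, an actin-binding LIM protein gene, had 243 knockout and 182 control counts at 15820 bp, in a peak over the RefSeq span of Afap1l2. Itgb1, an integrin gene, was level with 183 knockout and 193 control counts at -5321 bp.

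Cell cycle genes had 15 peaks, 2 higher and none lower, with a median of 0.03 that was -0.14 on the RPM scale and -0.01 among those called in both. Aurkb, a mitotic kinase gene, had 418 counts in the knockout and 422 in the control at its strongest peak. The cyclin genes Ccne1, with 435 knockout and 472 control counts, and Ccnd1, with 102 knockout and 145 control counts, were within 2-fold at theirs. The 2 higher peaks were at Cdkn1a, given above, and at Ccnd1 (49 knockout and 19 control counts at -41357 bp).

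**Figure D5:**
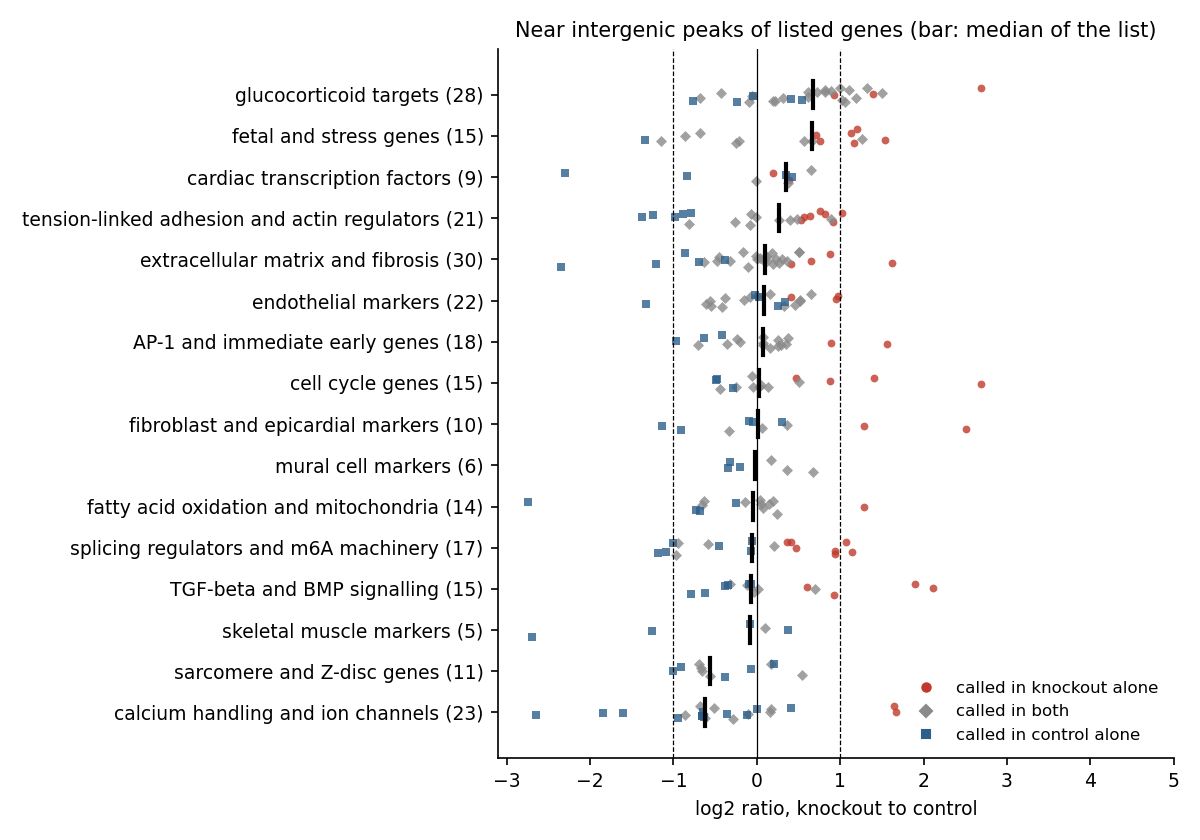
Log2 ratio of knockout to control at each near intergenic peak of the listed genes, for lists with at least 5 peaks, with marks by the library of the call; the number of peaks stands in brackets and the black bar is the median. Medians run from 0.67 for glucocorticoid targets to -0.63 for calcium handling genes, and dashed lines mark 2-fold.

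The lists for other cell types check the tissue. Sarcomere genes had a promoter peak at 20 of 22 members, with a median of 28.5 CPM in the knockout and 33.4 in the control. Endothelial genes had 18 of 20, fibroblast and epicardial genes 11 of 15 and mural cell genes 8 of 12. A promoter peak was thus not particular to cardiomyocyte genes, and splicing and m6A genes had 24 of 25. Fewer were found at lymphoid and erythroid genes (2 of 15), myeloid genes (4 of 15), epithelial, lung and adipocyte genes (1 of 13) and skeletal muscle genes (4 of 13). Neural and Schwann cell genes had 7 of 12, at a median of 6.65 CPM in the knockout and 7.70 in the control. Near intergenic peaks of endothelial genes numbered 22, none higher and 1 lower, with a median of 0.09 that was -0.08 on the RPM scale, -0.04 among those called in both and -0.01 among those with higher mean CPM. Egfl7 had 463 counts in the knockout and 339 in the control (ratio 1.43, 1.24 to 1.65). Aplnr, the apelin receptor gene, had 220 knockout and 256 control counts at its strongest peak, and Eng, the endoglin gene, had 190 knockout and 144 control counts.

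Mural cell genes had 6 peaks, none past 2-fold, with a median of -0.02 that turned positive under 6 of 7 alternatives, and the strongest was at Des, which cardiomyocytes also express, with 121 counts in the knockout and 79 in the control. Pdgfrb, a pericyte receptor gene, had 54 knockout and 72 control counts. Fibroblast and epicardial genes had 10 peaks, 2 higher and 1 lower, with a median of 0.01 that was -0.16 on the RPM scale. Both higher peaks were at Tcf21, with 24 knockout and 4 control counts and 31 knockout and 13 control counts. Dpt (89 knockout and 117 control counts), Meox1 (65 knockout and 65 control counts) and Pdgfra (40 knockout and 43 control counts) were within 2-fold.

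Myeloid genes had 4 peaks within 2-fold and a median of -0.12, with 67 counts in the knockout and 64 in the control at Adgre1, 30 knockout and 38 control counts at C1qa and 45 knockout and 46 control counts at Tyrobp. Lymphoid and erythroid genes had no near intergenic peak. Epithelial, lung and adipocyte genes had 4, of which Krt8 was higher with 91 knockout and 42 control counts (ratio 2.26, 1.55 to 3.35), while Krt18 had 48 knockout and 73 control counts and Lep 186 knockout and 211 control counts. Skeletal muscle genes had 5 with a median of -0.09, or 0.21 after the loess trend was removed, 2 of them lower, at Myod1 (23 knockout and 58 control counts) and Myh2 (4 knockout and 30 control counts), with Pax7 at 36 knockout and 29 control counts and Myf6 at 43 knockout and 42 control counts. The part of cell composition in the differences above was not tested.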

How the data were processed

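ATAC-seq was run on nuclei of heart tissue, with 1 library per genotype, grouped by the genotype label. Per the submitters' processing notes, BWA, MACS2 and GRCm38.p6 were used (no versions given); what filters, duplicate handling, Tn5 offset or counting unit applied is not stated there. The authors deposited 1 table of 58076 merged peaks with raw counts per library, per the file headers and the whole-number values. The deposited RPM values equal (count + 1) times 1 constant per library (0.01822 knockout, 0.01965 control), which puts 11.8% and 13.3% of the implied totals in peaks. The deposited fold enrichment is a ratio, used only as a peak threshold, and the log2 column deposited beside them is the RPM ratio on the log2 scale. Annotation, distances and coordinates are the authors'.

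Counts were scaled by column sums over all peaks, and 0.5 counts were added for log2 ratios. Intervals of ratios and shares are exact (Clopper-Pearson, 95%) and cover counting error only; the 2-fold rule is not a test. Symbols were matched by position to RefSeq spans (overlap at least 0.5 of the union and 2 times the next candidate, or both ends within 1 kb), which named 18566 of 24480 identifiers (75.8%). Nearest coding genes were taken from RefSeq spans. Only the ratios, their intervals and the 2-fold rule were tested on simulated counts.

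The members and gene lists were chosen with earlier results of these data known. Named peaks followed a rule: among peaks with a symbol (no predicted genes) and 1 per gene, the 10 highest and 10 lowest ratios at or above 6.98 mean CPM and the 5 and 5 among peaks called in both libraries; the 5 strongest; up to 3 genes per list by their strongest peak; and the 3 highest and 3 lowest means among genes with at least 5 peaks. Peaks of these genes beyond their strongest, the runs, and peaks named for passing 2-fold within a list were chosen after their values were seen. The motif search, meant for peak sequence, was run on RefSeq promoter windows in place of it.

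Alternatives were TMM factors (edgeR 4.0.16), median centring, the authors' RPM scale, loess with span 0.3, 5 counts added, a filter on mean CPM, peaks called in both libraries, fold enrichment of at least 10, a 1.5-fold rule and limits of 25 and 100 kb. Python 3.11.15, pandas 2.3.3, scipy 1.17.1, statsmodels 0.14.6 and R 4.3.3 were used.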

Additional observations from a re-analysis of the deposited data

How the results depend on the processing

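Of the 11399 near intergenic peaks, the main counts were 903 higher and 1315 lower, with a median log2 ratio of -0.06. The median was -0.0115 with TMM factors, -0.0119 with the median of all peaks at 0, -0.23 on the authors' RPM scale, and -0.0458 within 25 kb. It turned positive after removal of the loess trend (0.0516), at or above the median CPM of all peaks (0.0383) and among peaks called in both libraries (0.0441). Higher and lower peaks numbered 137 and 146 under that CPM filter, 85 and 92 among peaks called in both, 247 and 409 with a fold enrichment of at least 10 and 2068 and 2835 by the 1.5-fold rule, and lower peaks numbered 738 with the loess trend removed. The filters and the fold rule change how many peaks can count; for the loess trend the cause was not tested. TMM, centring, the RPM scale, 5 added counts and limits of 25 and 100 kb kept both counts within 1.5 times. The RPM scale lowers each log2 ratio by about 0.17. Of 610 alternative values for 122 named peaks, 603 stayed within the counting interval and 7 moved beyond it, all on the RPM scale, and 1 of these, on chromosome 19, had the other sign there (-0.11, against 0.06). Peaks near 0 also changed sign on the RPM scale while staying within the interval. Among them were those of Meox1 (-0.11, against 0.06), Fabp3 (-0.10, against 0.07) and Cd36 (-0.02, against 0.15). Of 108 alternative medians of 16 gene lists, an addition made after the data were seen, 26 had the other sign. No paired analysis was possible because each genotype had 1 library, and no replicate could be left out. At a median of 45 counts in the knockout and 49 in the control, single peaks resolve only large ratios.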
